A study of Mus musculus with 9 samples.

Results

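The Hox cluster genes are the 39 genes on these arrays whose symbol is Hoxa, Hoxb, Hoxc or Hoxd followed by a number from 1 to 13. They were found through the RefSeq accession of each probe, which gave 43 probes for 39 of the 32450 genes or identifiers measured, and comprised 11 genes of the Hoxa cluster, 10 of Hoxb, 9 of Hoxc and 9 of Hoxd. The data are total RNA levels in sorted mouse cells of 3 groups, read on 1-colour Agilent arrays with 3 arrays for each group. Primordial germ cells (PGCs), from which sperm or eggs later form, came from male genital ridges at E13.5 and were sorted for GFP. Their embryos were MCH x C57BL6/J and carried the Oct4ΔPE-GFP transgene, which is active in germ cells. The Max knockdown cells were VV3 embryonic stem (ES) cells, a male 129SV line in which the Vasa (Ddx4) promoter drives the fluorescent protein Venus. They had received siRNA against Max and were sorted 3 days later for Venus. The control cells were VV3 ES cells given the non-silencing AllStars siRNA and sorted 3 days later as live single cells without a Venus gate, so the siRNA and the gate differ together between the ES groups and cannot be told apart. Both ES groups grew in medium with KSR, FBS and LIF, and the sources used here do not say how many embryos went into a PGC array.

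Hox genes encode homeodomain transcription factors that give cells their position along the head-to-tail axis. They lie in 4 clusters, in which low-numbered (anterior) genes are switched on early and near the head and high-numbered (posterior) genes late and near the tail, with retinoic acid and Cdx factors as inducers. In ES cells the clusters are a classical target of Polycomb repression, and in the mouse embryo newly specified PGCs are known to shut off the Hox genes that neighbouring mesoderm cells switch on.

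Levels are given as log2 of the processed signal relative to the 75th percentile of the array, and a gene counted as above background where the scanner software set its flag for a spot well above background. Between 58.2% and 67.57% of spots were above background on an array, and replicates correlated across genes at 0.991 to 0.995. The targeted gene, Max, stood at 3.77, 3.65 and 3.57 in PGCs, at 0.59, 0.83 and 1.13 in knockdown cells and at 2.84, 2.74 and 2.85 in control cells, so each knockdown array was below each control array (log2 -1.96, SE 0.14, adjusted p = 2.9e-05). Ddx4, whose promoter drives the Venus used for the sort, stood at 4.06, 3.81 and 4.12 in PGCs, at 3.07, 2.95 and 2.73 in knockdown cells and at 0.44, 0.28 and 0.13 in control cells, with the knockdown cells between the other groups, which for the knockdown cells follows from the sort. Pou5f1, the Oct4 gene, was above background on all 9 arrays and did not pass the test in any of the 3 comparisons. Detection of markers did not separate the cell types, since all 8 ES cell markers were above background on every PGC and control array and 7 of them on every knockdown array, and all 8 germ cell markers on every PGC array and 7 of them on every knockdown and control array. Their levels differed: the germ cell markers summed, in multiples of the 75th percentile of the array, to 103 to 122 in PGCs, 36.9 to 41.0 in knockdown cells and at most 10.9 in control cells. The ES cell markers summed to 141 to 177 in PGCs, 248 to 262 in knockdown cells and 225 to 233 in control cells. Because these are bulk samples, fewer cells with a transcript and less of it per cell cannot be told apart.

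Fewer Hox genes were above background on all arrays in PGCs than in ES cells. Above background on all 3 arrays of a group were 6 of the 39 genes in PGCs (15.4%), 21 in knockdown cells (53.8%) and 27 in control cells (69.2%), whereas the shares over all genes were nearly level at 54.6%, 56.4% and 59.2%. No anterior gene (paralogs 1 to 4) reached it in PGCs, against 9 of 12 in knockdown cells and 10 of 12 in control cells. Of the central genes (paralogs 5 to 8) there were 3 of 11 in PGCs, 7 in knockdown cells and 9 in control cells, and of the posterior genes (paralogs 9 to 13) 3, 5 and 8 of 16. The Hoxb cluster differed most between the cell types, with 1 of 10 genes in PGCs, 9 in knockdown cells and all 10 in control cells. In the Hoxd cluster 1, 2 and 4 of 9 genes were above background in PGCs, knockdown cells and control cells, in Hoxc 2, 4 and 5 of 9, and in Hoxa 2, 6 and 8 of 11. The arrays were not equally sensitive. The lowest signal above background was -5.75 on PGC array 1 and -4.94 and -4.80 on the other PGC arrays. It was -5.86, -5.36 and -5.02 on the knockdown arrays and -5.61, -5.78 and -5.94 on the control arrays. The share of spots above background was 59.9% on knockdown array 4 and 67.57% on control array 3. The part of these differences in the counts was not tested. On at least 1 array, 20 Hox genes were above background in PGCs, 27 in knockdown cells and 34 in control cells. Each of those 20 was above it on PGC array 1. Of the ES cell arrays, only control array 3 had Hoxa6, Hoxa11, Hoxc8, Hoxc10 and Hoxd11 above background. Over all genes the numbers on at least 1 array were 21530, 21288 and 22091 of 32450. The anterior genes above background on at least 1 array were 4, 11 and 11 of 12. No test was made of these counts.

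**Figure D1:**
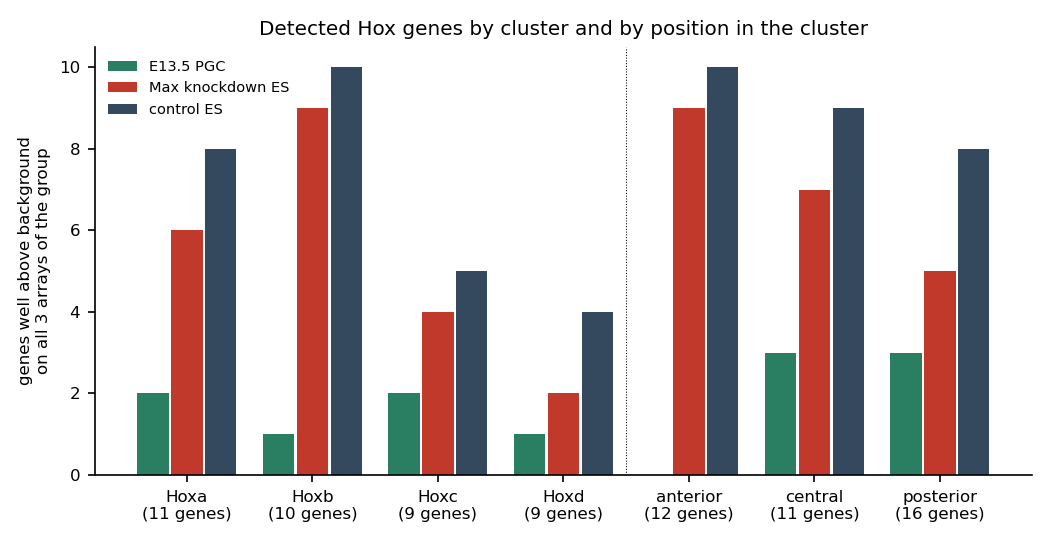
Number of Hox genes (y axis) above background on all 3 arrays of a group, by cluster (left) and by position in the cluster (right), with bars for E13.5 PGC, Max knockdown ES and control ES. The anterior genes have no bar for PGCs, against 9 genes in knockdown and 10 in control cells.

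Taken gene by gene, 9 were above background on all 6 ES cell arrays and on no PGC array (among them Hoxa2, Hoxb1, Hoxb2, Hoxb4, Hoxb5, Hoxb8, Hoxb9 and Hoxc4), and 5 were above it on all 9 arrays (Hoxa7, Hoxa9, Hoxb13, Hoxc6 and Hoxd8). Hoxc12 was above background on the 3 PGC arrays and on no ES cell array. A gene was tested if some group had it above background on each of its 3 arrays, which 29 Hox genes met, 23 of them through an ES group and not through PGCs. Tests are limma's moderated tests with Benjamini-Hochberg adjustment over all 20443 genes tested, at an adjusted p of 0.05.

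**Figure D2:**
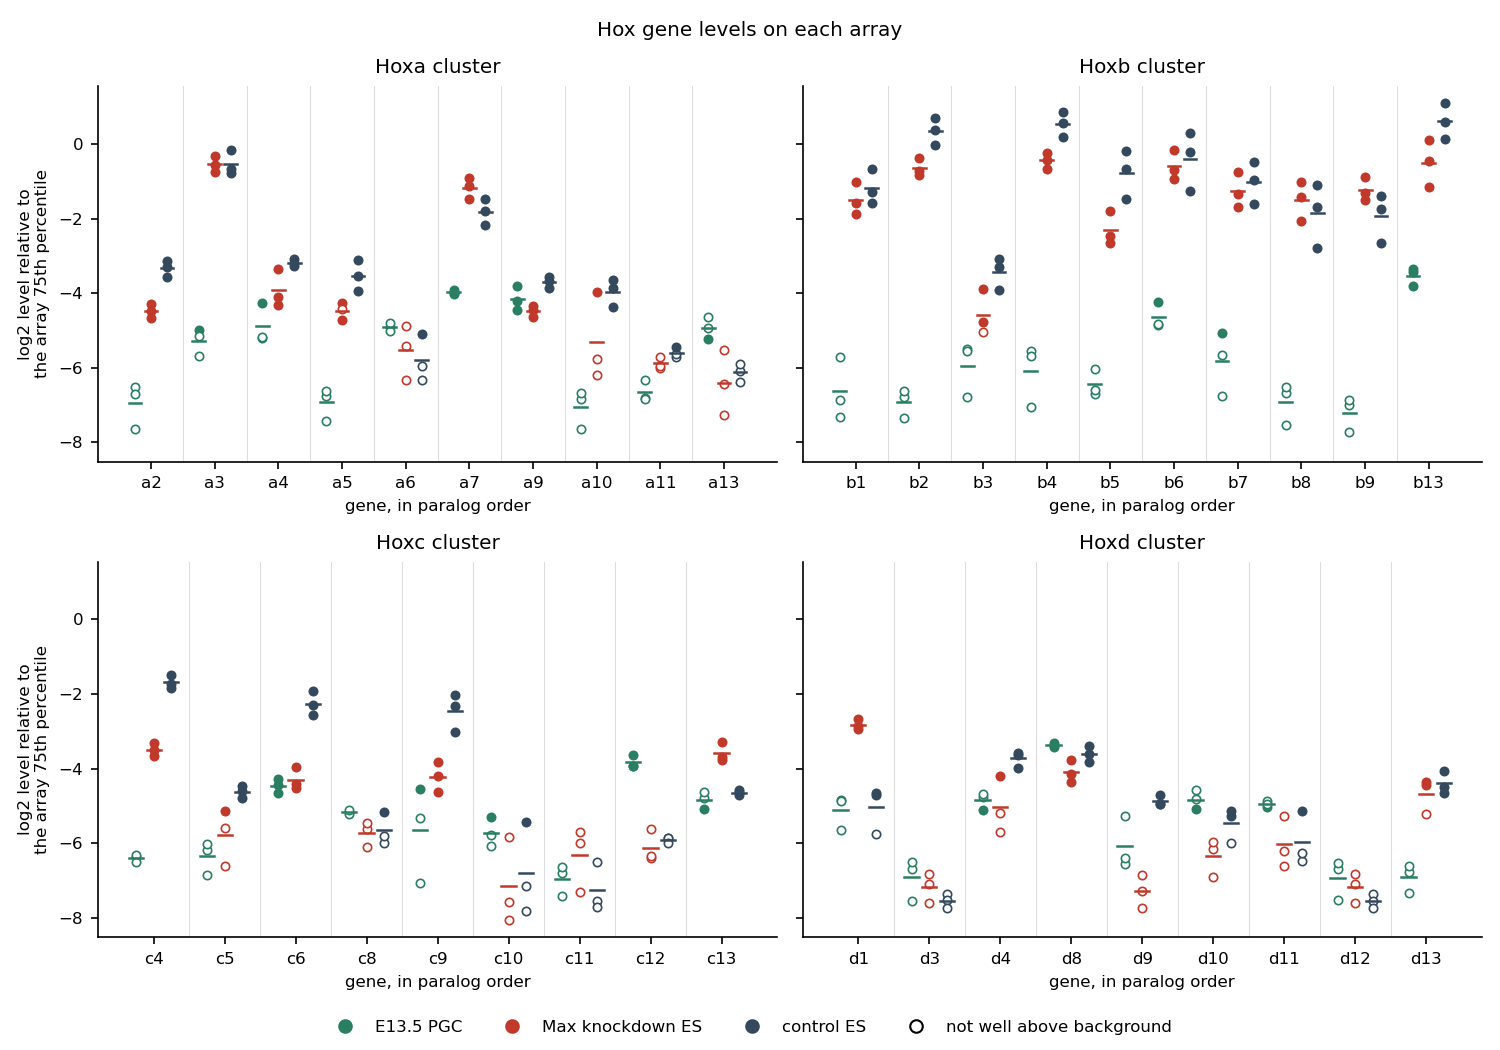
Log2 level relative to the 75th percentile of the array (y axis) of the Hox genes reported here, by cluster in paralog order (x axis), with a point for each array of E13.5 PGC (left), Max knockdown ES (middle) and control ES (right) and a line at the group mean. Open points are not well above background. In the Hoxb panel the PGC points lie below all ES cell points of the same gene.

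In knockdown cells, set against control cells, 13 Hox genes fell and 3 rose, and the falls reached into all 4 clusters. Of the genes above background in both groups Hoxc6, Hoxc4 and Hoxc9 fell most. The rises were 4.64-fold for Hoxd1, which was above background on 2 of 3 control arrays, 2.08-fold for Hoxc13 and 1.56-fold for Hoxa7. The other 13 of the 29 genes tested did not pass (adjusted p 0.058 or above). The shares of all genes tested were 18.2% for rises and 21.9% for falls. The median log2 difference was -0.78 over the Hox genes tested, against -0.07 over all genes tested, and -0.75 with Hoxd9 at its bound. At a fold of at least 2 there were 2 rises and 9 falls, Hoxd9 counted by its fitted value (6.32% and 4.83% of all genes tested), and the knockdown and control arrays did not overlap for 17 of the 29 genes, where 54.1% of all genes tested did not. Since 7 of the 29 entered only through the control cells and 1 only through the knockdown cells, the same counts over all 39 genes without a filter were 2 rises and 9 falls, with shares of 9.78% and 10.4% over all genes and a median of -0.36.

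Among the Hoxd genes, Hoxd1, an anterior gene, gave the largest rise. Hoxd1 stood at -4.84, -5.65 and -4.85 in PGCs, at -2.93, -2.86 and -2.67 in knockdown cells and at -5.75, -4.71 and -4.64 in control cells. Control array 1, at -5.75, was not above background, and Hoxd1 was tested only because it was bright in the knockdown cells. All 3 knockdown arrays were above every PGC and control array, and the difference from control cells was 2.34 within slide 1 and 1.97 within slide 2 (log2 2.21, SE 0.32, adjusted p = 0.00096). Hoxd9, a posterior gene of limb and trunk patterning, stood at -5.28, -6.55 and -6.39 in PGCs, at -7.74, -7.27 and -6.86 in knockdown cells and at -4.94, -4.96 and -4.70 in control cells. It was above background on all control arrays and on no other array, which made it at least 1.46-fold lower in knockdown cells (log2 -2.42, SE 0.34, adjusted p = 0.00081). Hoxd4, a hindbrain and neck gene, stood at -5.10, -4.75 and -4.68 in PGCs, at -5.70, -5.18 and -4.19 in knockdown cells and at -3.98, -3.57 and -3.63 in control cells. It was above background on 1 of 3 knockdown arrays and fell (log2 -1.29, SE 0.34, adjusted p = 0.015), with a log2 difference of -1.66 within slide 1 and -0.56 within slide 2. Hoxd8 stood at -3.36, -3.42 and -3.32 in PGCs, at -3.76, -4.15 and -4.37 in knockdown cells and at -3.40, -3.81 and -3.62 in control cells, all above background, and the knockdown and control ranges overlapped. Its small fall (log2 -0.48, SE 0.16, adjusted p = 0.045) did not pass with the slide as a block (adjusted p = 0.055). Hoxd13, the digit and genital gene at the posterior end, stood at -7.34, -6.76 and -6.61 in PGCs, at -4.43, -4.35 and -5.22 in knockdown cells and at -4.49, -4.06 and -4.64 in control cells, and the knockdown and control arrays overlapped (log2 -0.27, SE 0.28, adjusted p = 0.49).

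The promoters of Hoxd1, which rose in knockdown cells, and of Hoxd4 and Hoxc4, which fell, are shown because MAX-containing dimers are known to bind the E-box CACGTG. Each runs from 250 bases before to 50 bases after the gene's start (RefSeq, build GRCm38.p6), and capitals mark CACGTG, a motif that reads the same on both strands.
Hoxd1, chr2:74762730-74763029, plus strand: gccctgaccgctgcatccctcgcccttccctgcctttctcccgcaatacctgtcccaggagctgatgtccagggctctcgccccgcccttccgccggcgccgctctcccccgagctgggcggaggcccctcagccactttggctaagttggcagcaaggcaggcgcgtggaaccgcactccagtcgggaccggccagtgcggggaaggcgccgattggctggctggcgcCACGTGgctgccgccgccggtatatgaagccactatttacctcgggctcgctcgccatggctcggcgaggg
Hoxd4, chr2:74721728-74722027, plus strand: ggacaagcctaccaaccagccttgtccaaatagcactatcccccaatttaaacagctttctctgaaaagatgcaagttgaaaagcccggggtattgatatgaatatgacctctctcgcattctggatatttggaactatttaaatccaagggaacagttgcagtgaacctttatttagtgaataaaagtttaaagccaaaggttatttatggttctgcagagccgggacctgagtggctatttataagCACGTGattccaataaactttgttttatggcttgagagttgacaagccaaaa
Hoxc4, chr15:103034145-103034444, plus strand: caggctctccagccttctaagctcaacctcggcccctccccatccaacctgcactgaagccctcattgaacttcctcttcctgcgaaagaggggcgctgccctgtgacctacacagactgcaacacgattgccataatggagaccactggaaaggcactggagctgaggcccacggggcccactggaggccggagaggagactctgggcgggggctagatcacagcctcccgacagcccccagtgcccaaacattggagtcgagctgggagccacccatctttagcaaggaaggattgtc
Hoxd1 and Hoxd4 each hold the motif once, and Hoxc4 holds none in this window. Of the 24 RefSeq promoters matched to 22 Hox genes, 5 (20.8%) hold it, all of the Hoxd cluster (Hoxd1, Hoxd4, Hoxd10, Hoxd11 and Hoxd13), against 7.15% of 32851 mouse promoters of the same length. The promoters matched were 9 genes of Hoxa, 3 of Hoxb, 1 of Hoxc and 9 of Hoxd, so the clusters were not covered alike. They were rich in CG dinucleotides, with a median of 14.5 per promoter against 7 over all promoters. A match of letters is a description and no measure of binding.

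In the Hoxc cluster 4 of the 6 genes tested fell and 1 rose in knockdown cells. Hoxc4, the most anterior gene of the cluster, stood at -6.37, -6.32 and -6.50 in PGCs, at -3.51, -3.30 and -3.66 in knockdown cells and at -1.72, -1.48 and -1.85 in control cells. The 3 groups did not overlap, the replicates lay close together, and the fall was almost the same within both slides, at log2 -1.80 and -1.82 (log2 -1.81, SE 0.13, adjusted p = 3.3e-05). Hoxc6, a gene of the thoracic region, stood at -4.64, -4.43 and -4.29 in PGCs, at -4.42, -3.95 and -4.52 in knockdown cells and at -2.57, -1.92 and -2.31 in control cells. The knockdown and PGC arrays overlapped, and all of them were below the control arrays (log2 -2.03, SE 0.20, adjusted p = 0.00016). Hoxc5 stood at -6.84, -6.19 and -6.01 in PGCs, at -5.13, -6.60 and -5.60 in knockdown cells and at -4.60, -4.47 and -4.79 in control cells and was above background on 1 of 3 knockdown arrays (log2 -1.16, SE 0.36, adjusted p = 0.031). Hoxc9, of the lower thorax, stood at -4.53, -7.07 and -5.31 in PGCs, at -3.83, -4.20 and -4.64 in knockdown cells and at -3.01, -2.02 and -2.32 in control cells, so the PGC arrays spread widest and the ES groups did not overlap (log2 -1.77, SE 0.58, adjusted p = 0.04). Hoxc13, known for hair and nail formation, went the other way and stood at -5.09, -4.79 and -4.63 in PGCs, at -3.76, -3.69 and -3.29 in knockdown cells and at -4.63, -4.72 and -4.57 in control cells. Every knockdown array was above every PGC and control array (log2 1.06, SE 0.16, adjusted p = 0.001). Hoxc12, the neighbour of Hoxc13, stood at -3.93, -3.93 and -3.63 in PGCs, at -5.61, -6.38 and -6.35 in knockdown cells and at -5.86, -5.87 and -5.99 in control cells, and no ES cell array was well above background.

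In the Hoxa cluster 3 of the 8 genes tested fell in knockdown cells and 1 rose. Hoxa2, the hindbrain and second-arch gene, stood at -7.63, -6.51 and -6.70 in PGCs, at -4.66, -4.48 and -4.30 in knockdown cells and at -3.58, -3.29 and -3.13 in control cells, with no overlap of the ES groups (log2 -1.14, SE 0.27, adjusted p = 0.011). Hoxa5, known from lung and neck development, stood at -7.41, -6.75 and -6.61 in PGCs, at -4.72, -4.28 and -4.43 in knockdown cells and at -3.94, -3.55 and -3.12 in control cells, with 2 of 3 knockdown arrays above background (log2 -0.94, SE 0.26, adjusted p = 0.021). Hoxa9, a blood stem cell gene, stood at -4.44, -4.22 and -3.80 in PGCs, at -4.36, -4.44 and -4.65 in knockdown cells and at -3.85, -3.57 and -3.68 in control cells and fell too (log2 -0.78, SE 0.17, adjusted p = 0.0064), a call that was lost with the mean over its 2 probes (log2 -0.65, adjusted p = 0.052). Hoxa7 was the member that rose. It stood at -3.99, -4.02 and -3.90 in PGCs, at -1.49, -1.13 and -0.91 in knockdown cells and at -2.18, -1.80 and -1.47 in control cells, and its lowest knockdown array was just under its highest control array (log2 0.64, SE 0.20, adjusted p = 0.03).

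Hoxa3, Hoxa4 and Hoxa10 did not pass in knockdown cells. Hoxa3, a pharyngeal gene, stood at -4.99, -5.69 and -5.14 in PGCs, at -0.58, -0.74 and -0.32 in knockdown cells and at -0.78, -0.68 and -0.15 in control cells, with overlapping ES groups (log2 -0.01, SE 0.23, adjusted p = 0.98). Hoxa4 stood at -5.21, -5.18 and -4.25 in PGCs, at -4.31, -4.10 and -3.34 in knockdown cells and at -3.26, -3.20 and -3.09 in control cells (log2 -0.73, SE 0.31, adjusted p = 0.09), and it passed without knockdown array 4 (adjusted p = 0.025). Hoxa10, the uterine and lumbar gene, stood at -7.64, -6.84 and -6.69 in PGCs, at -6.19, -5.76 and -3.96 in knockdown cells and at -4.36, -3.87 and -3.66 in control cells, where the knockdown array on slide 2 lay among the controls and the other knockdown arrays were not above background. It did not pass (log2 -1.34, SE 0.54, adjusted p = 0.079). It passed with the slide as a block (adjusted p = 0.019), within slide 1 (0.005), with quantile normalization (0.038) and without knockdown array 4, the one on slide 2 (0.0029).

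In the Hoxb cluster 3 of the 10 genes fell in knockdown cells and 7 did not pass. Hoxb2, a hindbrain gene, stood at -7.34, -6.78 and -6.63 in PGCs, at -0.72, -0.83 and -0.39 in knockdown cells and at -0.04, 0.36 and 0.70 in control cells (log2 -0.98, SE 0.24, adjusted p = 0.011). Hoxb5 stood at -6.71, -6.03 and -6.60 in PGCs, at -2.66, -2.46 and -1.79 in knockdown cells and at -1.47, -0.68 and -0.19 in control cells (log2 -1.52, SE 0.35, adjusted p = 0.0092). Hoxb13, the isolated posterior gene known from prostate and tail, stood at -3.36, -3.80 and -3.43 in PGCs, at -1.15, -0.47 and 0.10 in knockdown cells and at 0.12, 0.59 and 1.09 in control cells (log2 -1.11, SE 0.33, adjusted p = 0.029). In these 3 genes every knockdown array was below every control array. The anterior Hoxb genes that did not pass had estimates below 0 as well. Hoxb1 stood at -7.33, -6.85 and -5.70 in PGCs, at -1.87, -1.58 and -1.03 in knockdown cells and at -1.59, -1.28 and -0.66 in control cells, with overlapping ES groups (log2 -0.32, SE 0.42, adjusted p = 0.59). Hoxb3 stood at -6.78, -5.50 and -5.55 in PGCs, at -4.78, -5.05 and -3.89 in knockdown cells and at -3.92, -3.30 and -3.09 in control cells (log2 -1.14, SE 0.42, adjusted p = 0.06), and it passed under several alternatives, among them the slide as a block (adjusted p = 0.0043) and the mean over its probes (0.018). Hoxb4, a blood stem cell gene, stood at -5.55, -7.04 and -5.70 in PGCs, at -0.67, -0.43 and -0.24 in knockdown cells and at 0.19, 0.56 and 0.85 in control cells, with no overlap of the ES groups (log2 -0.98, SE 0.37, adjusted p = 0.065).

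From Hoxb6 to Hoxb9 the ES groups, with their arrays taken as unpaired, overlapped. Hoxb6 stood at -4.23, -4.84 and -4.83 in PGCs, at -0.94, -0.70 and -0.17 in knockdown cells and at -1.26, -0.22 and 0.29 in control cells (log2 -0.21, SE 0.38, adjusted p = 0.71). Hoxb7 stood at -5.06, -6.75 and -5.66 in PGCs, at -1.69, -1.33 and -0.74 in knockdown cells and at -1.62, -0.96 and -0.49 in control cells (log2 -0.23, SE 0.46, adjusted p = 0.73). Hoxb8, which acts in the spinal cord and in microglia precursors, stood at -7.54, -6.67 and -6.52 in PGCs, at -2.06, -1.42 and -1.02 in knockdown cells and at -2.79, -1.70 and -1.09 in control cells (log2 0.36, SE 0.46, adjusted p = 0.58). Hoxb9 stood at -7.72, -7.01 and -6.87 in PGCs, at -1.50, -1.32 and -0.88 in knockdown cells and at -2.66, -1.74 and -1.40 in control cells, and did not pass (log2 0.70, SE 0.35, adjusted p = 0.14), although it did with the slide as a block (adjusted p = 0.048) and with normexp background correction (adjusted p = 0.044). From Hoxb5 to Hoxb9 the estimates thus ran from log2 -1.52 over -0.21 and -0.23 to 0.36 and 0.70 in the order of the cluster. Only Hoxb5 of this stretch passed. Outside the stretch the estimates did not follow such an order. They were -0.32, -0.98, -1.14 and -0.98 from Hoxb1 to Hoxb4 and -1.11 for Hoxb13. This is a description, and no test of the order was made.

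**Figure D3:**
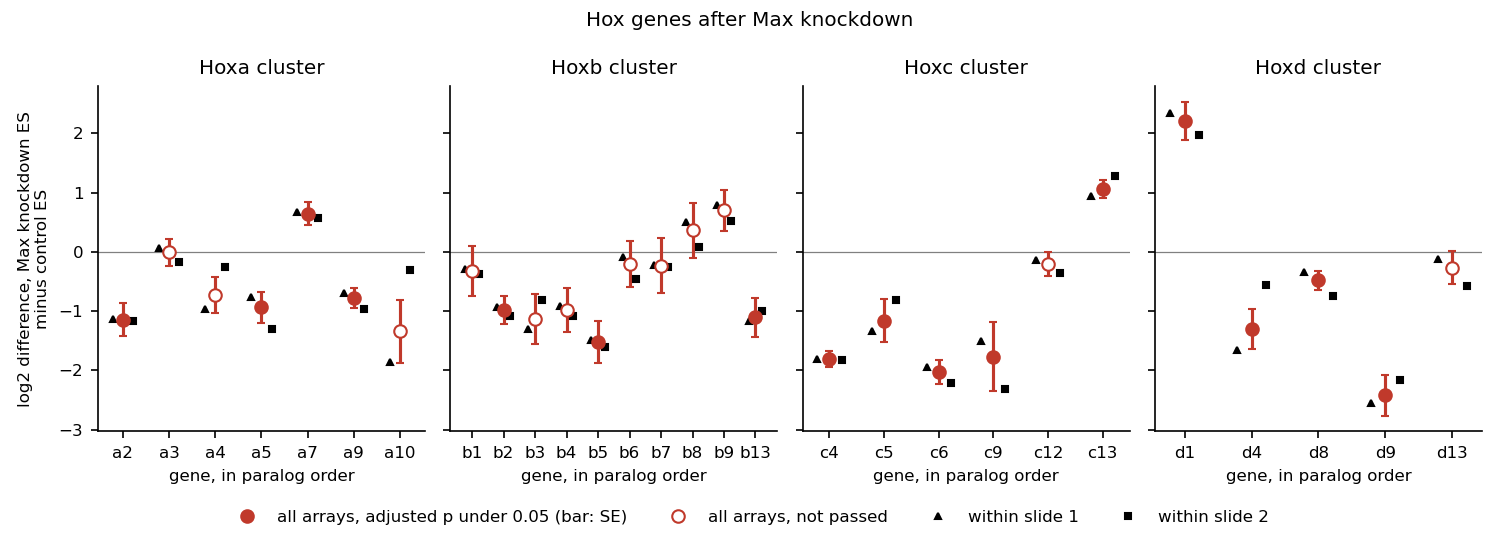
Log2 difference of Max knockdown ES minus control ES (y axis) for the tested Hox genes reported here, by cluster in paralog order (x axis), as circles with SE (filled where adjusted p is under 0.05). The small triangles and squares are the differences within slide 1 and within slide 2. Hoxd1 lies highest at 2.21. Hoxd9, at -2.42, was not above background in knockdown cells, so its point is a fitted value and no bound.

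The slide was the batch that could be tested in the ES groups, since slide 1 held 2 arrays of each and slide 2 held 1 of each. All 16 called genes had the same sign within both slides, as did 28 of the 29 tested, Hoxa3 being the exception. With the slide as a block 4 Hox genes rose and 15 fell, where 20.3% and 25.2% of all genes tested did. In the Hoxb cluster levels differed between the arrays of a group, within slide 1 as well as between the slides. In control cells Hoxb6 stood at -1.26 and -0.22 on slide 1 and at 0.29 on slide 2. Hoxb9 stood there at -2.66 and -1.74 on slide 1 and at -1.40 on slide 2. In knockdown cells Hoxb2 stood at -0.72 and -0.83 on slide 1 and at -0.39 on slide 2. Slides 1 and 2 were scanned on different days. With 1 array of each ES group on slide 2, slide, scan day and replicate cannot be told apart. The slide 2 array was the highest of its group for all 10 Hoxb genes in knockdown cells and for all 10 in control cells, against 41.6% and 43.9% of all genes tested. The slide 2 array exceeded the mean of the slide 1 arrays there by a median of 0.71 in knockdown cells and 0.79 in control cells on the log2 scale, against 0.04 in both over all genes tested. The slide 2 array was highest for 5 of 8 Hoxa genes in knockdown cells and 7 of 8 in control cells, and for 1 of 6 Hoxc genes in either group.

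Leaving out single arrays gave 8 to 13 falls and 2 to 3 rises. There were 8 falls without knockdown array 2, without control array 2 and without control array 3, and 7 of the 16 calls were lost in at least 1 of these fits (Hoxa5, Hoxa7, Hoxb13, Hoxc5, Hoxc9, Hoxd4 and Hoxd8). Each of the 6 ES cell arrays, when left out, ended the call of at least 1 of these. Scaling on spike-in probes left 1 rise (Hoxd1) and 4 falls (Hoxc4, Hoxc6, Hoxc9 and Hoxd9). The estimates hardly moved with it (Hoxa2 -1.13, Hoxb5 -1.51 and Hoxc13 1.08, against -1.14, -1.52 and 1.06), and their adjusted p went up to 0.31, 0.065 and 0.36. The log2 level of the spike-ins was 11.83 and 11.88 on the ES cell arrays of slide 2, against 10.41 to 10.55 on slide 1. The fit with this scaling had no slide term, so that difference entered the spread within each ES group. The normexp background correction, which adds an offset of 50, gave 4 rises and 15 falls with a median of -0.28.

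Markers of some other cell types were also lower in knockdown than in control cells, where 18.2% of all genes tested rose and 21.9% fell. Of 10 fibroblast markers 8 were tested and 6 fell, and their summed linear level was 1.30 to 1.41 in knockdown cells against 3.76 to 5.85 in control cells, in units of the 75th percentile of the array. Postn and Prrx1 were above background on no array. The 6 neuroectoderm markers summed to 1.69 to 1.93 in knockdown cells against 3.85 to 4.64 in control cells, with 3 of 5 tested having fallen and Neurog2 above background nowhere. The primitive endoderm markers summed to 1.04 to 1.51 in knockdown cells against 1.51 to 2.49 in control cells, with 3 of 6 having fallen. The mesoderm markers summed to 0.20 to 0.23 in knockdown cells against 0.40 to 0.46 in control cells, with 2 of 3 tested having fallen and Msgn1 above background nowhere. Other marker lists did not fall alike. Of 6 blood and endothelium markers tested, 2 rose and 0 fell in knockdown cells (median log2 0.47). Of 4 mesonephros markers tested 0 rose and 0 fell, and of 17 gonadal somatic markers 2 rose and 4 fell (median log2 -0.11). The part of these cell types in the Hox result was not tested.

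In PGCs the Hox genes were low almost throughout. Set against control cells, 25 of the 29 genes tested fell, 1 rose and 3 did not pass, while 32.4% of all genes tested fell and 43.2% rose. Set against knockdown cells, 21 fell, 3 rose and 5 did not pass, while 31.4% of all genes tested fell and 44.9% rose. The median log2 differences were -3.19 from control cells and -2.45 from knockdown cells, against 0.18 and 0.21 over all genes tested, and -2.15 and -1.67 with the genes dim in a group at their bounds. The PGC arrays did not overlap the control arrays for 25 of the 29 genes and the knockdown arrays for 23, where 78.5% of all genes tested did not overlap in either comparison. These counts are a description, since most of the 29 were tested only because they were bright in ES cells. Over all 39 genes without a filter, 25 fell and 2 rose from control cells (19.8% and 33.9% of all genes), and 22 fell and 5 rose from knockdown cells (19.5% and 34.2% of all genes). These comparisons share the PGC arrays, and the comparisons with control cells share the control arrays, so their values are given side by side and not as independent.

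**Figure D4:**
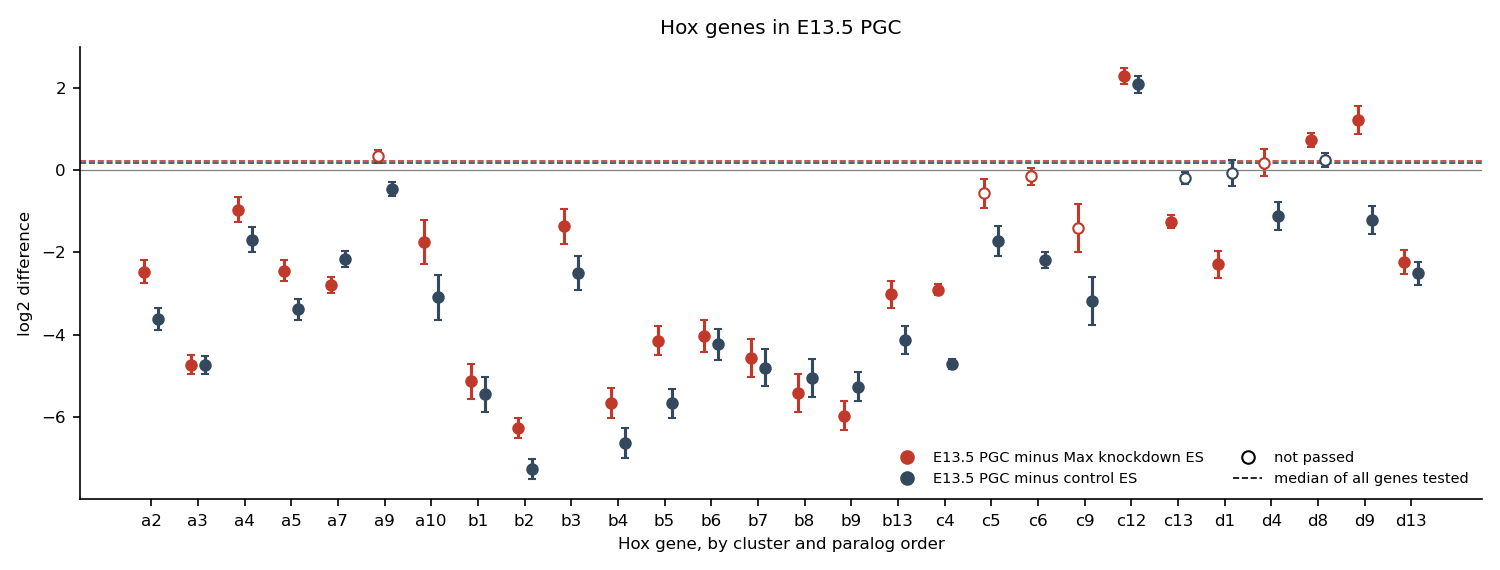
Log2 difference (y axis) of E13.5 PGC minus Max knockdown ES and of E13.5 PGC minus control ES for the tested Hox genes reported here (x axis), with SE; filled circles have an adjusted p under 0.05 and dashed lines mark the medians over all genes tested. The points are fitted values, which for genes dim in a group are no bounds. Hoxb2 lies at -6.27 and -7.26, and Hoxc12 highest at 2.28 and 2.08.

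All 10 Hoxb genes fell from control cells, and none of their PGC arrays reached an ES cell array. Hoxb2 was at least 22.9-fold lower in PGCs than in knockdown cells and at least 45.4-fold lower than in control cells (adjusted p = 8.3e-08 and 4e-08). Hoxb4 was at least 25.2-fold and 49.6-fold lower (adjusted p = 1.7e-06 and 6.1e-07). Hoxb1, a hindbrain gene that early mesoderm also uses, was at least 12.7-fold and 15.9-fold lower (adjusted p = 7e-06 and 4.6e-06).

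For the other genes without a PGC array above background, the bounds are given in the same order, against knockdown and then control cells. They were 7.27 and 20.9 for Hoxb5, 12.7 and 9.89 for Hoxb8, and 15.3 and 9.39 for Hoxb9 as folds. The Hoxc4 bounds were 3.19-fold and 11.2-fold, and those of Hoxa2 were 1.61-fold and 3.56-fold. All of these 5 genes passed in both comparisons, with the highest adjusted p at 4.3e-05 for Hoxa2 against knockdown cells. Against control cells, Hoxa5, Hoxa10 and Hoxb3 were at least 3.09-fold, 2.31-fold and 3.31-fold lower in PGCs, with 2, 1 and 2 of the knockdown arrays above background. Their adjusted p was 4.3e-06, 0.00072 and 0.00058 against control cells and 3.4e-05, 0.015 and 0.015 against knockdown cells. Against knockdown cells the Hoxa10 call was lost without PGC array 1 and the Hoxb3 call without knockdown array 4. Weakly bright genes left only small bounds, with at least 1.46-fold for Hoxc5, 1.1-fold for Hoxd9 and 1.7-fold for Hoxd13 against control cells (adjusted p = 0.002, 0.01 and 4.7e-05). Against knockdown cells Hoxd13 was at least 1.41-fold lower (adjusted p = 9.6e-05) and Hoxc5 did not pass (log2 -0.57, SE 0.36, adjusted p = 0.17).

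A few Hox genes kept a measurable level in PGCs. Hoxb13 was above background on all PGC arrays and still fell 8.14-fold from knockdown cells (log2 -3.02, SE 0.33, adjusted p = 4.3e-05) and 17.5-fold from control cells (log2 -4.13, SE 0.33, adjusted p = 5.9e-06). Hoxa7 fell 6.95-fold from knockdown cells (log2 -2.80, SE 0.20, adjusted p = 2.6e-06) and 4.45-fold from control cells (log2 -2.15, SE 0.20, adjusted p = 1.2e-05). Hoxc6 did not pass between PGCs and knockdown cells (log2 -0.16, SE 0.20, adjusted p = 0.5), whereas it fell from control cells (log2 -2.19, SE 0.20, adjusted p = 1.4e-05). Hoxd8 rose slightly from knockdown cells (log2 0.72, SE 0.16, adjusted p = 0.0032) and did not pass against control cells (log2 0.24, SE 0.16, adjusted p = 0.2). With spike-in scaling the sign of the Hoxd8 difference from knockdown cells turned (log2 -0.25, adjusted p = 0.74).

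Hoxa9 gave different answers from its probe pair. The brighter probe was above background on all 9 arrays and changed little in PGCs (log2 0.33, SE 0.17, adjusted p = 0.1 from knockdown cells and log2 -0.46, SE 0.17, adjusted p = 0.034 from control cells). The other probe stood at -7.34, -7.26 and -7.12 in PGCs, at -3.84, -4.00 and -5.24 in knockdown cells and at -3.62, -3.59 and -4.32 in control cells, above background on none of the PGC arrays, 2 of the knockdown arrays and all 3 control arrays. The mean over both probes put Hoxa9 lower in PGCs than in knockdown cells (log2 -1.28, adjusted p = 0.00091), so the level of Hoxa9 in PGCs is uncertain. Its fall from control cells by the brighter probe was also lost without PGC array 1 or 2 or control array 2 or 3. Hoxb3 probes ran the same way, and the second probe of Hoxa13 was above background on no array.

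Hoxc12 was the Hox gene above background on all 3 PGC arrays and on no ES cell array. It was at least 2.83-fold higher than in knockdown cells (adjusted p = 1e-05) and at least 3.86-fold higher than in control cells (adjusted p = 1.8e-05). Hoxc12 was tested only because it was bright in PGCs, so these differences are a description. With spike-in scaling the difference from control cells no longer passed (log2 1.12, adjusted p = 0.065). The other tested genes with some PGC arrays above background were Hoxa3, Hoxb6, Hoxb7, Hoxc9, Hoxc13, Hoxd1 and Hoxd4 with 1 array each and Hoxa4 with 2. Hoxa3 fell (-4.73 from knockdown and -4.74 from control cells on the log2 scale, adjusted p = 3e-07 and 2.7e-07), as did Hoxb6 (-4.03 and -4.24, adjusted p = 1.7e-05 and 1.2e-05) and Hoxb7 (-4.57 and -4.80, adjusted p = 2.3e-05 and 1.6e-05). Hoxa4 fell less (-0.96 and -1.69, adjusted p = 0.018 and 0.00091), and its call against knockdown cells was lost without PGC array 1, PGC array 2 or knockdown array 4. Hoxc9 and Hoxd4 fell from control cells (-3.19 and -1.12, adjusted p = 0.00098 and 0.014) and did not pass against knockdown cells (-1.42 and 0.18, adjusted p = 0.052 and 0.64). Hoxd1 and Hoxc13, which rose in knockdown cells, fell in PGCs against knockdown cells (-2.29 and -1.26 on the log2 scale, adjusted p = 0.00018 and 8.8e-05), and against control cells they did not pass (-0.08 and -0.20, adjusted p = 0.83 and 0.27). Hoxd9 passed as higher in PGCs than in knockdown cells (adjusted p = 0.0099), but it was above background on no array of either group, so no fold is given.

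With scaling on the spike-ins the median of all genes was -0.76 in PGCs against knockdown cells and -0.77 against control cells, and the Hox medians were -3.42 and -4.14. The PGC arrays lay on slides of their own (slides 3 and 4), which were scanned on other days than the ES cell slides. Slide, scan day and cell type therefore cannot be told apart. Of the gonadal somatic markers 17 were tested, and 10 rose and 3 fell in PGCs against control cells, with a summed linear level of 10.2 to 14.2 in PGCs against 5.92 to 6.45 in knockdown cells and 5.69 to 6.31 in control cells for the 19 on the array. Amh was above background on every PGC array and on no ES cell array. The mesonephros markers summed to 1.29 to 1.57 in PGCs against 0.18 to 0.22 in knockdown cells and 0.18 to 0.19 in control cells, with Emx2 above background on no array. The blood and endothelium markers summed to 2.46 to 4.25 in PGCs against 2.40 to 3.43 in knockdown cells and 2.17 to 2.74 in control cells. Of these markers 2, among them Emcn, were above background on no array. Of the 6 tested, 1 rose and 3 fell against either ES group (median log2 -1.04 from control cells and -1.37 from knockdown cells). Of 4 mesonephros markers tested, 3 rose and 0 fell against either ES group. Of all genes tested 43.2% rose and 32.4% fell against control cells, and 44.9% and 31.4% against knockdown cells. The part of these cells in the Hox signals of the PGC arrays was not tested.

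The 10 Hox genes that were not tested ranged from -8.06 to -4.58 on the log2 scale. Hoxc11, Hoxd3 and Hoxd12 were above background on no array. Hoxa13 was above it on 1 PGC array, and Hoxa11 on 1 control array. Hoxa6, Hoxc8, Hoxc10 and Hoxd11 were above it on 1 PGC and 1 control array, and Hoxd10 on 1 PGC array and 2 control arrays. Without a filter Hoxa13 was higher in PGCs than in knockdown cells (log2 1.47, adjusted p = 0.015) and than in control cells (log2 1.19, adjusted p = 0.037), and Hoxd10 higher than in knockdown cells (log2 1.51, adjusted p = 0.0042). Hoxa11 was lower in PGCs (log2 -0.77, adjusted p = 0.0047 from knockdown cells and log2 -1.06, adjusted p = 0.00091 from control cells). These values lie at the background of the arrays and give no fold.

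The regulators and partners of Hox genes were measured on the same arrays, and with spike-in scaling Meis1, Meis2, Meis3, Cdx1, Ezh1, Aebp2, Kmt2b, Psip1, Smug1 and En2 did not pass between knockdown and control cells. For all the lists that follow, the shares over all genes tested were 18.2% for rises and 21.9% for falls in knockdown cells. In PGCs against control cells these shares were 43.2% and 32.4%. The counts of the lists are a description, and no list was tested against these shares. Of the 9 TALE homeodomain cofactors, which bind DNA together with HOX proteins, 4 fell and 5 did not pass in knockdown cells (median log2 -0.46). Meis1 stood at -2.29, -2.51 and -2.54 in PGCs, at -0.41, -0.89 and -0.69 in knockdown cells and at -0.01, 0.14 and 0.06 in control cells, without overlap of the groups (log2 -0.72, SE 0.13, adjusted p = 0.003 in knockdown against control cells). Meis2 and Meis3 fell alike (-0.95 and -1.04 on the log2 scale, adjusted p = 0.0014 and 0.00078). In PGCs, set against control cells, 5 of the 9 fell and 3 rose. Meis1 and Pknox2 fell most (-2.51 and -3.82, adjusted p = 4.6e-07 and 1.8e-07), and Pbx2, a dimer partner of HOX proteins, rose (1.07, adjusted p = 3.7e-06) but not with spike-in scaling (log2 0.12, adjusted p = 0.88).

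Cdx1, a caudal factor that activates Hox genes in the early embryo, stood at -1.84, -1.42 and -1.65 in PGCs, at 2.53, 2.96 and 3.05 in knockdown cells and at 1.50, 1.76 and 1.77 in control cells. It rose in knockdown cells (log2 1.17, SE 0.17, adjusted p = 0.00083) and fell in PGCs against control cells (log2 -3.31, SE 0.17, adjusted p = 3.4e-07), while Cdx4 and Pdx1 were above background on no array. Gsx1, the other tested gene of this list of 6, did not pass in knockdown cells (-0.02, adjusted p = 0.96) and fell in PGCs (-3.28, adjusted p = 7.7e-06). Of 18 retinoic acid genes, 16 were tested, and 2 rose and 6 fell in knockdown cells (median log2 -0.19). Aldh1a2, which makes retinoic acid, stood at 1.25, 0.91 and 1.10 in PGCs, at 0.18, 0.17 and 0.08 in knockdown cells and at -2.42, -2.24 and -2.56 in control cells and rose in knockdown cells (log2 2.55, SE 0.12, adjusted p = 4.3e-06), whereas Dhrs3, a retinaldehyde reductase, fell (log2 -1.84, SE 0.20, adjusted p = 0.00023). In PGCs against control cells 6 of the 16 rose and 8 fell, with a rise of Aldh1a1, another retinaldehyde dehydrogenase (log2 6.68, adjusted p = 1.1e-07). Stra8, a germ cell gene induced by retinoic acid, fell in PGCs against knockdown cells (-5.93, adjusted p = 1.3e-07).

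Of 21 Polycomb genes 19 were tested, and 4 rose and 6 fell in knockdown cells (median log2 0.03), with Ezh1 at log2 -0.48 (adjusted p = 0.0025) and Aebp2 at log2 0.46 (adjusted p = 0.0046). In PGCs against control cells 7 rose and 10 fell, among them Ezh2, the main methyltransferase of PRC2 (-1.49, adjusted p = 9.5e-07), while Phf19 rose (1.93, adjusted p = 3.3e-07) but not with spike-in scaling (adjusted p = 0.11). Of 14 trithorax and MLL genes listed, Kmt2a was not matched to a probe. Of the 13 measured, 2 rose and 4 fell in knockdown cells (median log2 0.03), with Psip1 at log2 -0.58 (adjusted p = 0.002) and Kmt2b at log2 -0.31 (adjusted p = 0.01). In PGCs against control cells 8 rose and 2 fell, and Mllt1 had the lowest adjusted p of the rises (1.40, adjusted p = 6.6e-07), which did not pass with spike-in scaling (adjusted p = 0.51).

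Of 16 genes listed that flank the clusters, 14 were tested, and 3 rose and 6 fell in knockdown cells (median log2 -0.14), and 5 rose and 6 fell in PGCs against control cells (median log2 -0.17). Smug1, a DNA repair gene beside Hoxc, stood at 0.05, 0.01 and 0.07 in PGCs, at -1.53, -1.35 and -1.34 in knockdown cells and at -0.95, -0.71 and -0.71 in control cells (log2 -0.62, SE 0.10, adjusted p = 0.0014 in knockdown against control cells). Mtx2, a mitochondrial gene beside Hoxd, rose in PGCs (1.24 from control cells, adjusted p = 8.5e-07), though not with spike-in scaling (adjusted p = 0.69). Evx1, a homeobox gene at the posterior end of Hoxa that is named here because its values stood out, stood at -2.24, -2.06 and -2.30 in PGCs, at -5.25, -6.18 and -6.74 in knockdown cells and at -5.65, -7.04 and -7.10 in control cells. It was above background on all PGC arrays and no control array, and at least 11.9-fold higher in PGCs than in control cells. Since Evx1 was picked for these values, no p-value is given. Of the noncoding RNAs of the clusters, Hoxa11os was measurable and fell in PGCs (-0.86 from control cells, adjusted p = 0.0076), Hoxd3os1 was above background on no array, and 14 others on the list of 16 were not matched to a probe.

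Of 24 other developmental homeobox genes, 15 were tested, and 1 rose and 6 fell in knockdown cells (median log2 -0.34), and 4 rose and 7 fell in PGCs against control cells (median log2 -0.23). Meox1, a somite gene, stood at -7.51, -6.50 and -6.69 in PGCs, at -6.80, -5.79 and -6.85 in knockdown cells and at -3.04, -2.94 and -3.44 in control cells, above background on the control arrays only, and was at least 4.84-fold lower in knockdown cells (adjusted p = 0.00018). Nkx2-5, a heart gene, and Irx3 fell in knockdown cells too (-2.36 and -2.28, adjusted p = 2.7e-05 and 5.5e-05), and En2, a midbrain gene, rose (0.61, adjusted p = 0.011). In PGCs against control cells Irx3 was at least 30.3-fold lower and Gbx2 fell (-4.83, adjusted p = 6.9e-08), whereas Lhx1, a kidney and head organizer gene, rose (4.07, adjusted p = 1.2e-08).

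**Figure D5:**
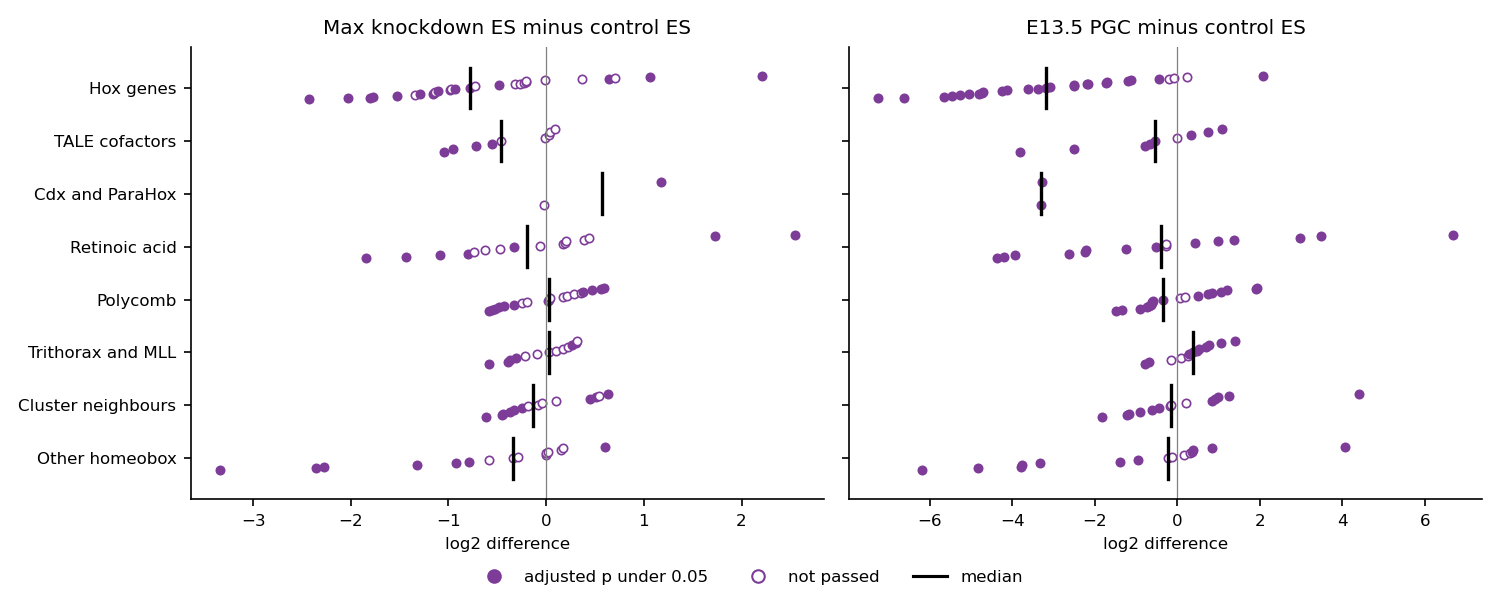
Log2 difference (x axis) of Max knockdown ES minus control ES (left) and of E13.5 PGC minus control ES (right) for the tested Hox genes reported here and the tested genes of 7 related lists (rows), with filled points where adjusted p is under 0.05 and a bar at each median, that of the Hox row over all tested Hox genes. The Hox medians lie at -0.78 and -3.19, and those of the Polycomb list at 0.03 and -0.35.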

How the data were processed

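Each of the 9 arrays was deposited as scanner output with 43020 spots other than controls. Per the file headers, Feature Extraction 10.7.3.1 of Agilent made the intensity values, as a processed signal with the background subtracted. The deposited table of log2 values, made by the authors from the same arrays, served as an alternative. Spots with outlier flags and control spots were left out, spots of a probe were averaged, and log2 of the processed intensity was taken relative to the 75th percentile of the array. Probes were named through RefSeq accessions (26006 of 39364 probes used), and the probe with the highest mean stood for a gene. Genes above background on all 3 arrays of some group were fitted with limma 3.58.1 (R 4.3.3), in 1 fit of the 3 groups, with Benjamini-Hochberg adjustment over 20443 genes. A fold against a group dim on all arrays is a lower bound ("at least"), taken against the higher of the dim signal and the lowest signal above background on the array. The number of arrays limits the precision, and with 3 against 3 arrays an exact permutation test could not go below p = 0.1. The design text calls the arrays biological replicates. The genes and lists were chosen with earlier results of these data known. Tested Hox genes are named, except for a gene that is counted in the totals but not reported here, and from each list the genes with the lowest adjusted p and the strongest gene against the list's median. The fit was tested on simulated data. Alternatives covered scaling, background correction, filters, probes, slides, the replicate number and leaving out arrays.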

Additional observations from a re-analysis of the deposited data

How the results depend on the processing

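With spike-in scaling, which used 7 probes, 1 Hox gene rose and 4 fell in knockdown cells against control cells; in PGCs 1 rose against knockdown cells and 0 rose by limma against control cells (1 at an unadjusted p under 0.05, Hoxc12), with medians of -3.42 and -4.14. Among the 5 genes above background on all 9 arrays, 1 rose and 4 fell in knockdown cells, 1 rose and 2 fell in PGCs against knockdown cells (median -0.16), and 0 rose (0 also at an unadjusted p under 0.05, limma) and 4 fell against control cells (median -2.15). Within slide 2 alone, where single arrays were compared with the spread of all arrays, 1 rose and 7 fell. Normexp correction gave medians of -0.28 for knockdown cells, and -0.81 and -1.07 for PGCs against knockdown and control cells. Without a filter these were -0.36, -1.37 and -2.15, with 5 and 2 rises in PGCs. Counting genes above background on at least 1 PGC array gave 20.

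Leaving out 1 array gave 2 to 3 rises, 8 to 13 falls and medians of -0.96 to -0.73 in knockdown cells, 3 to 4 rises, 19 to 22 falls and medians of -2.59 to -2.20 in PGCs against knockdown cells, and 1 rise, 24 to 25 falls and medians of -3.47 to -3.05 against control cells. Signs turned for Hoxd8 (log2 -0.25 in PGCs against knockdown cells), Kmt2b (-0.18) and Max (-0.10, both in PGCs against control cells) with spike-in scaling, and for Hoxa9 (-1.28 in PGCs against knockdown cells) with the mean over its probes; the cause was not tested. Knockdown and control arrays share the replicate numbers 1 and 2, and each of these pairs was on slide 1. Their deviations correlated at 0.37 and 0.39, where differently numbered arrays of slide 1 gave -0.07 and -0.03. Within slide 1, arrays of the same number thus went together and those of different numbers did not. Knockdown array 4 and control array 3, on slide 2, gave 0.51 with different numbers. The main fit treated the ES cell arrays as unpaired. PGC and control arrays share the numbers 1 to 3, and their correlations of -0.03 to 0.02 give no pairing between these groups. In the fit with the replicate number as a block, only knockdown array 4 carried the number 4. That array therefore had no weight in comparisons with knockdown cells, and the block also tied PGC arrays to ES cell arrays by number. With the replicate block 4 Hox genes rose and 13 fell in knockdown cells (median -0.78), 4 and 21 in PGCs against knockdown cells (median -2.53), and 1 and 25 against control cells (median -3.19). In knockdown cells the calls of Hoxc5 (adjusted p = 0.12), Hoxc9 (0.19) and Hoxd8 (0.11) were lost with it and those of Hoxa4 (0.036), Hoxa10 (0.0011), Hoxb3 (0.035) and Hoxb9 (0.039) were gained. In PGCs it changed no call of a Hox gene against control cells, and a rise of Hoxd4 against knockdown cells was gained (0.0055). Of 980 recomputed values of the 63 results on other genes, 938 kept direction and side of the threshold. Signal over background limits the dim genes, whose differences are known only as bounds.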
